A study of Mus musculus with 8 samples.

Results

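Mural cells are the contractile cells that wrap blood vessels, smooth muscle cells on arteries and veins and pericytes on capillaries. The 8 genes described here mark them, and all 8 were found by symbol among the 18877 genes of the table. Acta2, Tagln, Cnn1 and Myh11 encode parts of the smooth muscle contractile apparatus, Rgs5 encodes a regulator of G protein signalling enriched in pericytes, and Pdgfrb, Cspg4 and Mcam encode proteins of the cell surface. RNA came from activated muscle stem cells (ASCs), the stem cells of skeletal muscle after injury has driven them out of quiescence. The groups were 4 wild-type and 4 mfn2-/- libraries. In the mfn2-/- mice the mitochondrial fusion gene Mfn2 was deleted in muscle stem cells, by tamoxifen and the Pax7-Cre(ERT2) driver. Mice of both groups carried the mito-Dendra2 allele, a fluorescent mitochondrial reporter under the Pax7-Cre(ERT2) driver, and received tamoxifen at 75 mg/kg daily for 5 days. After a further 2 days 50 uL of 1.2% BaCl2 was injected into the tibialis anterior, and 2 days later living cells positive for Dendra2 and negative for CD34 were sorted. Cre from Pax7 acts in the stem cell lineage, not in the vessel wall. Whether the wild-type mice carried floxed Mfn2, and the age of the mice, are not given in the sources used here.

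In vessels, endothelial cells release PDGF-B, and pericytes carry its receptor, PDGFRβ, through which they are recruited and held at the vessel. Smooth muscle contractile genes are switched on by serum response factor (SRF), which binds a DNA element called the CArG box together with myocardin or its relatives. None of the 8 genes is private to mural cells. Fibroblasts carry Pdgfrb, activated fibroblasts carry Acta2 and Tagln, glial precursors carry Cspg4, and endothelial cells carry Mcam.

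The libraries held 1880464 to 7508215 reads in genes, and 1 read was worth 0.534 to 2.27 normalized reads, the unit of every value below. A gene at 3 reads or fewer is taken as at the floor. The 2 shallowest libraries were wild-type replicate 1 and mfn2-/- replicate 4, and the latter also had the fewest genes with a read, 9646 against up to 15270. Reads of 4 Y-linked genes numbered 807 to 2336 in 4 libraries, wild-type replicates 3 and 4 with mfn2-/- replicates 1 and 2, and 0 in the remaining 4, a split that the labels do not name. Changes within each kind, with 2 libraries per group, are therefore given for the tested markers. Mfn2 itself had 202 to 245 normalized reads in the wild-type and 104 to 172 in the mfn2-/- libraries, with no overlap (log2 change -0.88, limma adjusted p = 0.0848). Pax7, the defining factor of muscle stem cells, averaged 662 normalized reads in the wild-type group and 715 in the other. The labels do not say that each library came from its own animal, so p-values measure only the spread between these libraries.

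Among the markers, those of the cell surface fell and the contractile genes and Rgs5 did not pass the test. By the ratio of group means, Cspg4 was 13.5-fold lower in mfn2-/- than in wild-type ASCs, Pdgfrb 7.91-fold and Mcam 2.18-fold. These 3 genes passed the limma test as lower, 0 members passed as higher, 4 did not pass, and Cnn1 lay under the filter on low counts. Over all 11754 genes tested, 10.4% passed, 6.36% as lower and 3.99% as higher. The groups did not overlap for the same 3 members, and over all genes tested 12.2% were lower and 7.36% higher with no overlap. The median log2 change of the 7 tested members was -1.27, beside -0.16 over all genes tested. It was -0.65 without mfn2-/- replicate 4, -0.67 with edgeR and -0.74 with quantile normalization. In bulk RNA, fewer cells of a type and less RNA per cell cannot be told apart.

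**Figure D1:**
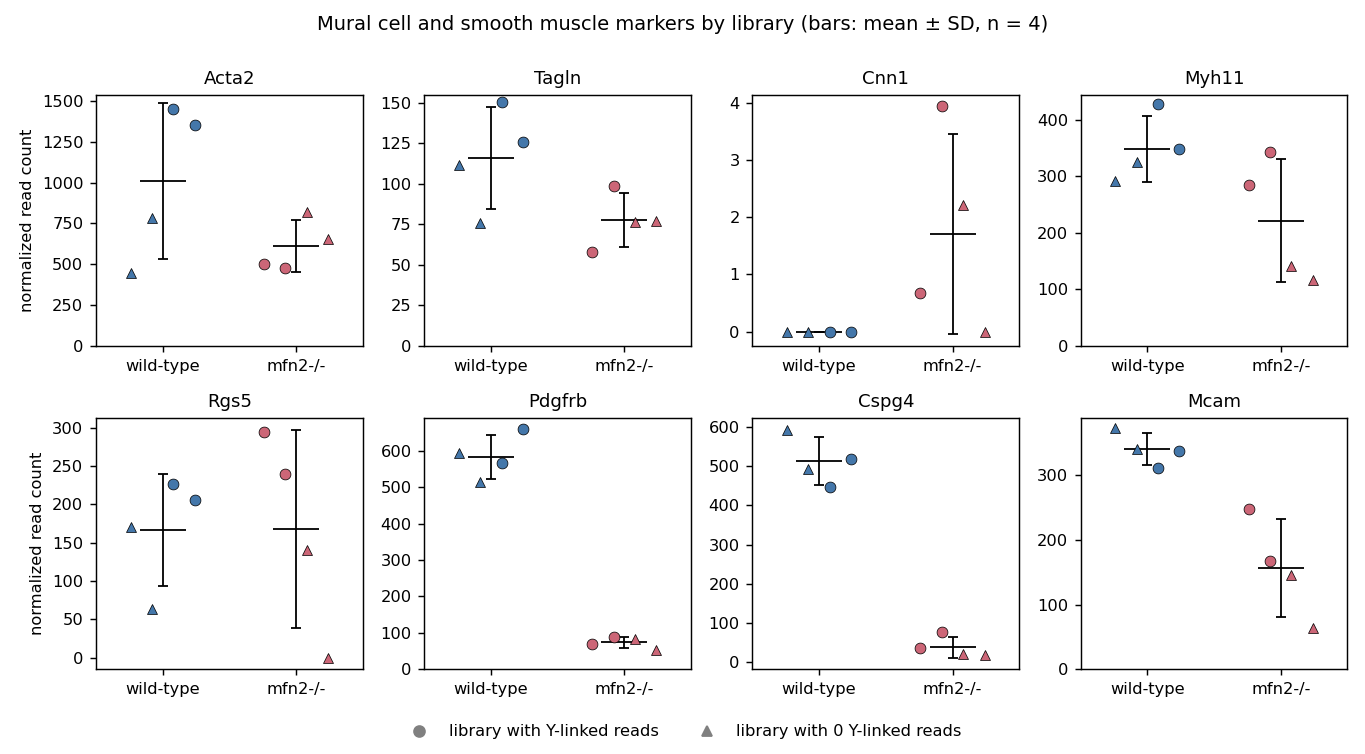
Normalized read counts (linear y axis, a separate scale per gene) of the 8 markers in the 4 wild-type and 4 mfn2-/- libraries, 1 point per library, with the mean and SD of each group as bars. For Pdgfrb, Cspg4 and Mcam every mfn2-/- point lies below every wild-type point, whereas the groups overlap for the other genes.

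Acta2 encodes smooth muscle alpha actin, the main actin of vascular smooth muscle, and lies on chromosome 19 from 34241090 to 34255590 on the minus strand (GENCODE M21, GRCm38, used for all gene positions). It had 446, 785, 1451 and 1354 normalized reads in wild-type replicates 1 to 4, and 500, 476, 819 and 656 in mfn2-/- replicates 1 to 4. Wild-type replicate 1 was the lowest of all 8 libraries and replicates 3 and 4 were the highest, and the wild-type coefficient of variation was 47.3%, against 25.9% in mfn2-/-. This gave a log2 change of -0.61 (SE 0.34, 95% interval -1.34 to 0.12, limma adjusted p = 0.295). The high wild-type libraries were both with Y-linked reads. Among libraries with such reads the log2 change was -1.52, and among those without it was 0.31. The difference between these changes was -1.83 on the log2 scale, with a limma adjusted p of 0.0452, a test that 1.47% of all genes passed and that rests on 2 libraries per group and kind. In libraries with such reads, wild-type Acta2 was higher, at 1451 and 1354 against 500 and 476. In those without, the groups overlapped, at 446 and 785 against 819 and 656, so no direction is given there.

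Its 300 base RefSeq promoter (GRCm38.p6, 250 bases before and 50 after the start) held 0 strict CArG boxes, which 1.63% of the 32851 promoters hold. Allowing 1 base of the A/T core to be G or C gave 2 matches in Acta2, and 9.98% of promoters hold at least 1. The element reads alike on both strands, and neither match overlaps a GC box. Both are shown with 10 bases on each side because Acta2 was the one with a match of the contractile members whose promoter was found, Acta2 and Cnn1, the element in capitals. They lie on the minus strand at chr19:34255438-34255467 and chr19:34255388-34255417, within the span of the GENCODE gene and upstream of the RefSeq start.
Acta2, element 84 bases before the start: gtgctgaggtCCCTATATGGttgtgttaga
Acta2, element 34 bases before the start: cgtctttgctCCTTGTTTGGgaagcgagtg
Promoters of 5 of the 8 members were matched, those of Acta2, Cnn1, Rgs5, Cspg4 and Mcam. A match is a sequence description only.

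The actin genes have nearly identical coding sequences. The handling of reads that match several of them is not given in the sources used here, and the values of Acta2 carry that uncertainty. Acta1, skeletal muscle actin, had 532, 807, 1246 and 1031 normalized reads in the wild-type and 886, 860, 1286 and 1966 in the mfn2-/- libraries. Its difference between the 2 kinds of library was -1.65 (limma adjusted p = 0.0602). Actc1, cardiac actin, which is also made in developing muscle, had 18.2, 52.9, 312 and 177 in the wild-type and 72.0, 79.0, 162 and 244 in the mfn2-/- libraries, with a difference of -4.26 (limma adjusted p = 0.0536). Acta2, Acta1 and Actc1 thus shared the high wild-type replicates 3 and 4, and neither of the latter 2 passed the test of that difference. Actg2, the actin of visceral smooth muscle, went the other way, at 287, 449, 51.4 and 10.7 in wild-type and 8, 6.32, 24.3 and 51.3 in mfn2-/- libraries. It changed by -2.46 on the log2 scale (SE 1.13, limma adjusted p = 0.199). Myog, which encodes the myogenin of differentiating muscle cells, had 134, 159, 558 and 584 in the wild-type and 68.7, 98.0, 141 and 161 in the mfn2-/- libraries. Like Acta2 it was high in wild-type replicates 3 and 4, and its difference between kinds was -2.83 (limma adjusted p = 0.0325). Myog was chosen after its values were seen, and its part in the Acta2 pattern was not tested.

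**Figure D2:**
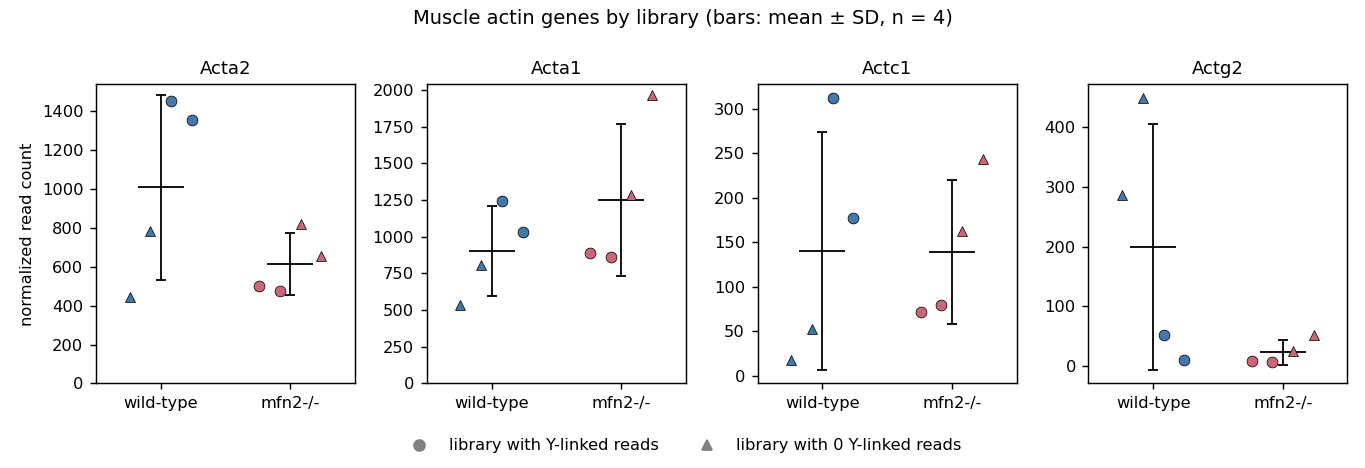
Normalized read counts (linear y axis, a separate scale per gene) of 4 muscle actin genes, 1 point per library, with circles for libraries with Y-linked reads and triangles for those without, and bars for the mean and SD of 4 libraries. Wild-type circles are the high points of their group for Acta2, Acta1 and Actc1 and the low points for Actg2.

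Tagln encodes transgelin (SM22 alpha), an actin-binding protein of smooth muscle, on chromosome 9 from 45929619 to 45936058, minus strand. It had 111, 75.7, 150 and 126 normalized reads in the wild-type and 58.0, 98.8, 76.6 and 77.0 in the mfn2-/- libraries. Only wild-type replicate 2 fell among the mfn2-/- values. On the log2 scale the change was -0.55 (SE 0.43, 95% interval -1.48 to 0.37, limma adjusted p = 0.461). Among libraries with Y-linked reads it was -0.85 and among those without -0.26. That difference did not pass its own test (limma adjusted p = 0.786). An antisense gene, Gm48529, shares 3627 bases with Tagln and Pcsk7 shares 108 on the opposite strand. The kit keeps strand, but the strand setting of the counting is not given in the sources used here, so reads of these partners may be included.

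Cnn1 encodes calponin 1, a late marker of contractile smooth muscle, on chromosome 9 from 22099216 to 22109630, plus strand. It had 0 reads in every wild-type library, and 1, 5, 3 and 0 reads in the mfn2-/- libraries, 9 reads in all. An exact permutation test gave p = 0.143 (two-sided, n = 4 per group, smallest possible p = 0.0286). All but mfn2-/- replicate 2 were at the floor, so no fold is given. Its broadly expressed relatives were well above the floor. Cnn2 fell (165 to 40.1 normalized reads on average, log2 change -2.01, limma adjusted p = 0.0163), and Cnn3 had 1582 and 2081 (log2 change 0.40, limma adjusted p = 0.188).

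Myh11 encodes the smooth muscle myosin heavy chain, the most restricted of the contractile markers, on chromosome 16 from 14194535 to 14291372, minus strand. It had 291, 326, 429 and 349 normalized reads in the wild-type libraries. In the mfn2-/- libraries it had 285, 343, 142 and 117, so replicate 2 lay among the wild-type values, replicate 1 just below them and replicates 3 and 4 far below. The log2 change was -0.78 (SE 0.35, 95% interval -1.53 to -0.02), and the limma adjusted p of 0.188 did not pass. Within libraries with Y-linked reads it was -0.31 and within those without -1.25, a difference that did not pass its own test (limma adjusted p = 0.428).

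Rgs5, on chromosome 1 from 169655501 to 169695813, plus strand, had 171, 63.3, 226 and 206 normalized reads in wild-type replicates 1 to 4, against 294, 240, 140 and 0 in mfn2-/- replicates 1 to 4. The mfn2-/- libraries thus held both the highest value and the lowest, and the group means were 167 ± 72.6 and 169 ± 129 (SD, n = 4). A count of 0 in mfn2-/- replicate 4 allows up to 5.50 normalized reads at that depth, for counting error only. The fitted change was -1.42 on the log2 scale (SE 1.40, limma adjusted p = 0.572), and it was 0.52 without that library. Among libraries with Y-linked reads it was 0.30 and among those without, which include mfn2-/- replicate 4, it was -3.14. That difference did not pass its own test (limma adjusted p = 0.594). No direction can therefore be given for Rgs5.

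Cspg4 encodes NG2, the chondroitin sulfate proteoglycan used to stain pericytes, on chromosome 9 from 56865033 to 56899870, plus strand. It had 594, 494, 446 and 518 normalized reads in wild-type replicates 1 to 4. The mfn2-/- libraries had 36.7, 76.6, 19.9 and 18.3, all far below the lowest wild-type library. The log2 change was -3.95 (SE 0.45, 95% interval -4.93 to -2.98, limma adjusted p = 0.000111). It was -3.15 among libraries with Y-linked reads and -4.75 among those without, and -3.70 without mfn2-/- replicate 4. The difference between the 2 kinds did not pass its own test (limma adjusted p = 0.407). By rank of p over all genes tested Cspg4 was gene 82.

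The promoters of Cspg4 and Mcam held GC boxes, the binding element of Sp-family factors (GGGCGG on either strand), 2 in Cspg4 and 5 in Mcam. At least 1 GC box was present in 35.7% of all promoters, and 0 were found in those of Acta2, Cnn1 and Rgs5. The stretch of the Cspg4 promoter before its first exon is printed because Cspg4 had the largest change of the members, with its GC boxes in capitals (GRCm38.p6, chr9:56864854-56865032, plus strand).
Cspg4, upstream stretch: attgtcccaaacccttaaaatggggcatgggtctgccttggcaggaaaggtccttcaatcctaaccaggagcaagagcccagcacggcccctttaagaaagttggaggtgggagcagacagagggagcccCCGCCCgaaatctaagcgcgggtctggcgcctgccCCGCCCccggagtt

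Mcam encodes CD146, an adhesion molecule of pericytes, smooth muscle and endothelium, on chromosome 9 from 44134469 to 44142727, plus strand. It had 373, 341, 312 and 337 normalized reads in the wild-type libraries, with a coefficient of variation of 7.35%. The mfn2-/- libraries had 248, 167, 145 and 64.1, a wider spread that stayed below the wild-type range. The log2 change was -1.27 (SE 0.37, 95% interval -2.07 to -0.47), and the limma adjusted p of 0.0446 was close to the threshold. With edgeR on the recovered reads, where 9.85% of genes passed, Mcam had a log2 change of -1.02 and an adjusted p of 0.116. Nor did it pass without any 1 of the wild-type replicates 1 to 4 (limma adjusted p = 0.0912, 0.0923, 0.0928 and 0.0999) or without mfn2-/- replicate 2 (0.0702) or 3 (0.087). Its log2 change was -0.67 among libraries with Y-linked reads and -1.87 among those without. The difference between these did not pass its own test (limma adjusted p = 0.473). The antisense gene Gm10687 overlaps Mcam by 17 bases and averaged 4.23 normalized reads in the wild-type group and 0 in the mfn2-/- group.

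Pdgfrb encodes the receptor for PDGF-B on pericytes and on many fibroblasts, on chromosome 18 from 61045150 to 61085061, plus strand. It had 594, 513, 567 and 660 normalized reads in the wild-type and 69.3, 89.3, 83.3 and 53.1 in the mfn2-/- libraries. Both groups were tight and lay far apart. The log2 change was -2.99 (SE 0.28, 95% interval -3.59 to -2.38, limma adjusted p = 2.03e-05), gene 44 by rank of p. It was -2.94 among libraries with Y-linked reads and -3.03 among those without, so Pdgfrb differed least between the 2 kinds among the tested members. Of the other PDGF genes, only Pdgfra, the receptor that defines fibroadipogenic progenitors, passed the test. It fell from 1919 to 3475 normalized reads in wild-type to 0 to 64.8 in mfn2-/- libraries (log2 change -7.25, limma adjusted p = 0.000405). The ligands Pdgfa, Pdgfb, Pdgfc and Pdgfd did not pass, and Pdgfb averaged 9.87 normalized reads in the wild-type group against 23.9 in the mfn2-/- group. For Pdgfb 2 wild-type libraries were at the floor, and the groups overlapped (0 to 23.5 and 13.3 to 38.3).

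**Figure D3:**
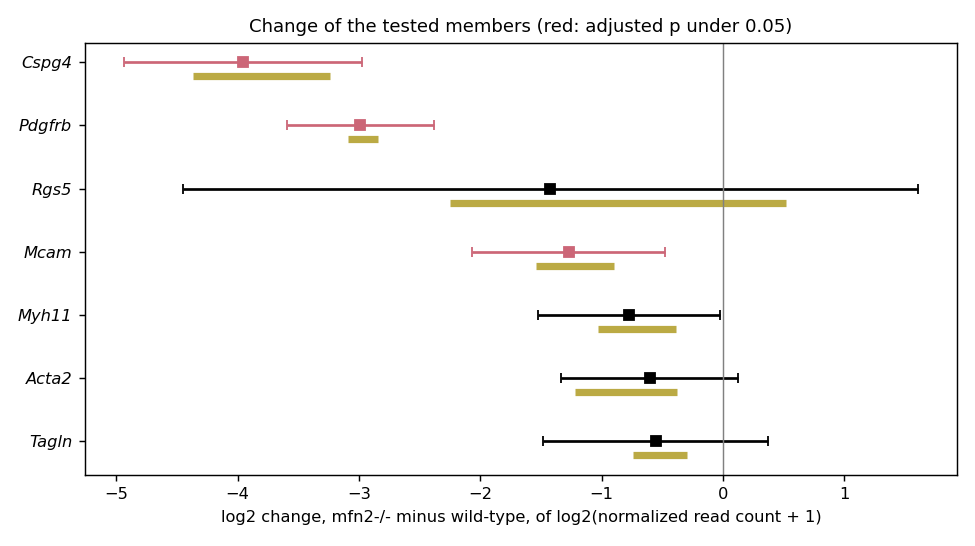
Log2 change, mfn2-/- minus wild-type, of the 7 tested markers on the log2(normalized read count + 1) scale, with squares and black or red bars for the limma estimate and its 95% interval, and yellow bars for the range over 20 alternative settings. Cspg4, Pdgfrb and Mcam lie below 0 with their intervals and ranges, the interval of Myh11 ends just below 0, and the range of Rgs5 crosses 0.

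Per kilobase of exon, the scale on which genes can be compared, the wild-type order was Acta2 at 459 ± 217, Pdgfrb at 106 ± 11.1, Mcam at 102 ± 7.47, Tagln at 58.3 ± 15.7, Myh11 at 45.9 ± 7.70, Cspg4 at 43.0 ± 5.17, Rgs5 at 36.6 ± 15.97 and Cnn1 at 0 normalized reads per kb (SD, n = 4). Pdgfrb and Mcam differed by less than their spread, and so did neighbours from Tagln to Rgs5. In mfn2-/- ASCs Acta2 still led at 279 ± 72.4, Mcam followed at 46.6 ± 22.6, Tagln at 39.0 ± 8.38 and Rgs5 at 37.1 ± 28.4. Pdgfrb was at 13.5 ± 2.94 and Cspg4 at 3.18 ± 2.27, the last above Cnn1. Acta2 made up 17.3 to 40.5% of the summed reads of the 8 markers in wild-type and 31.9 to 66.5% in mfn2-/- libraries. Pdgfrb made up 15.8 to 23.0% and 4.65 to 5.97%. Summed over the 8 markers, the level was 2579 to 3581 normalized reads in wild-type and 986 to 1495 in mfn2-/- libraries.

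The markers moved together to differing degrees over the 8 libraries, and every pair of tested markers had a positive correlation. Pearson's r of the log2 values was 0.97 for Pdgfrb with Cspg4 and 0.85 for Cspg4 with Mcam, pairs whose values are set apart by the groups. It was 0.83 for Myh11 with Mcam, 0.72 for Myh11 with Rgs5 and 0.70 for Tagln with Pdgfrb. The lowest values were those of Acta2, at 0.24 with Myh11, 0.22 with Mcam and 0.08 with Rgs5, while Acta2 with Tagln had 0.56. The genes most like each marker, among 5585 with a mean of at least 100, are given as a description over 8 libraries that share groups and depth. For Pdgfrb they were Cacna1g (r = 0.9985), a calcium channel subunit, Col11a2 (0.997), a fibrillar collagen, and Nid1 (0.9948), a basement membrane protein. For Cspg4 they were Kera (0.9915), a keratan sulfate proteoglycan, Vit (0.9914) and Col8a2 (0.9907), a collagen. Mcam was most like Thsd7a, Myo1d and Ccpg1 (r = 0.985 to 0.9915). Acta2 was most like Ddah2 (0.956), Actn3 (0.952), the alpha-actinin of fast muscle fibres, and Ccnd1 (0.947), cyclin D1. Tagln was most like Epm2aip1, Sumo3 and Zfp871 (0.8915 to 0.9577), Myh11 like Egfr, Slfn5 and Nr1d1 (0.9656 to 0.9698), and Rgs5 like N4bp2, A830080D01Rik and Fam65a (0.9889 to 0.9915). Rgs5 had 0 reads in mfn2-/- replicate 4 and 63.3 to 294 normalized reads in the other libraries. Its r values, that with Myh11 included, therefore rest largely on that library, and r without it was not computed.

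Over all genes tested 6.36% fell, 3.99% rose and the median log2 change was -0.16, the background for this list and those below. Of 25 further genes of smooth muscle contraction 24 were tested, of which 5 fell, 3 rose and 16 did not pass. Their median log2 change was -0.57. The genes that fell were Myl9 (log2 change -2.58), the smooth muscle myosin regulatory light chain, Mylk (-1.54), the kinase that phosphorylates it, Smtn (-1.42), smoothelin, Tpm1 (-1.24), a tropomyosin, and Csrp1 (-0.93), with limma adjusted p from 0.00133 to 0.0483. Mylk had 808 to 1144 normalized reads in wild-type and 236 to 423 in mfn2-/- libraries, while Myl9 had 79.9 to 165 and 10.3 to 58.5. Those that rose were Des (1.91), the desmin filament of all muscle including ASCs, Synpo2 (1.67) and Tpm2 (1.12), with limma adjusted p from 0.00188 to 0.0269. The 2 most abundant that did not pass were Flna (-0.24), filamin A, and Ppp1r12a (0.13), a myosin phosphatase subunit. With quantile normalization 3 fell and 3 rose, with edgeR 3 fell and 3 rose, and without wild-type replicate 1 only 2 fell and 2 rose. The list's median moved to -0.06 without mfn2-/- replicate 4, -0.09 with quantile normalization and -0.17 with edgeR. Of 20 alternative settings Mylk, Des and Synpo2 passed in 20, Tpm1 in 19, Smtn in 16, Tpm2 in 14, Myl9 in 10 and Csrp1 in 5.

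Of 24 further pericyte genes 19 were tested, of which 3 fell, 1 rose and 15 did not pass, with a median log2 change of -1.07. Those that fell were Anpep (-5.72), aminopeptidase N (CD13), Cd248 (-4.12), endosialin, and Ebf1 (-3.67), a transcription factor, genes that fibroblasts also carry, with limma adjusted p from 0.00401 to 0.0469. Anpep had 89.0 to 200 normalized reads in wild-type and 0 to 8.11 in mfn2-/- libraries. Abcc9, the sulfonylurea receptor subunit of pericyte potassium channels, rose by 1.44 (limma adjusted p = 0.0357) from 93.2 to 282 normalized reads in wild-type to 198 to 501. Its groups overlap through wild-type replicate 4 and mfn2-/- replicate 3. Of 20 alternative settings Anpep passed in 20, Cd248 in 16, Abcc9 in 12 and Ebf1 in 10. Abcc9 did not pass without wild-type replicate 1, 2 or 3 or mfn2-/- replicate 1, 2 or 4, with no filter or with no trend, and its adjusted p ranged from 0.00741 to 0.127 over the 20. The most abundant that did not pass were Notch3 (0.06), a Notch receptor of mural cells that ASCs also carry, and Steap4 (-0.40), a metalloreductase. Under the filter on low counts lay 5 of these 24 genes and 1 of the 25 contractile genes. Of all 18877 genes of the table, the filter kept 11754. Kcnj8, Higd1b, Ndufa4l2, Cox4i2 and Trpc6 of the pericyte genes, Kcnmb1 of the contractile genes and Myocd, the gene of myocardin, averaged under 10 normalized reads, as Cnn1 did. The highest single value among them was 40.0, for Ndufa4l2 in wild-type replicate 3. Higd1b had a read in 1 library only, Cox4i2 in 2, and Myocd at most 10.2 normalized reads.

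SRF, its cofactors and their regulators made up a further list of 14 genes, of which 12 were tested, 2 rose, 0 fell and 10 did not pass, with a median log2 change of 0.46. Rock2 (0.88, limma adjusted p = 0.00704), a protein kinase, and Klf4 (0.87, limma adjusted p = 0.0209), a factor that represses smooth muscle genes in vessels, rose. Without wild-type replicate 1, 4 rose. Rock1 (0.53) and Rhoa (-0.35) were the most abundant that did not pass. Srf itself averaged 257 normalized reads in the wild-type group against 473 in the mfn2-/- group (log2 change 0.97, limma adjusted p = 0.094). Its log2 change was 1.86 among libraries with Y-linked reads and 0.08 among those without. That difference did not pass its own test (limma adjusted p = 0.0791). Of 18 genes related in sequence to the markers 17 were tested, of which 4 fell and 2 rose. Besides Pdgfra and Cnn2, Rgs16 (-1.25), another regulator of G protein signalling, and Myh10 (-1.11), a non-muscle myosin, fell, and Tagln2 (1.31) and Actg1 (1.08), a cytoplasmic actin, rose. Actb (0.06) and Myh9 (0.40) did not pass. Rock2, Actg1 and Rgs16 passed in 19 of 20 alternative settings, Myh10 and Pdgfra in 20, Cnn2 in 18, Klf4 in 16 and Tagln2 in 10.

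**Figure D4:**
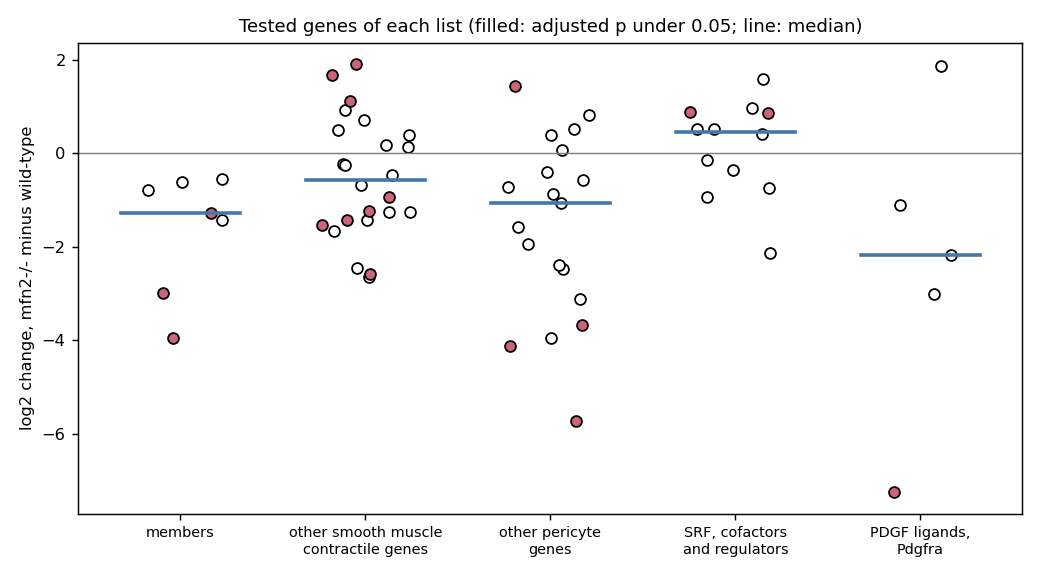
Log2 change, mfn2-/- minus wild-type, of the tested genes of 5 lists, 1 point per gene with random sideways spread, filled where the limma adjusted p was under 0.05, with a line at the median of each list. Filled points lie above and below 0 among the contractile genes, mostly below among the pericyte genes and above 0 among SRF and its regulators.

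Markers of some other cell types moved with the groups, and those of others did not. The sort kept Dendra2-positive cells, that is, cells of the Pax7 lineage. Of 10 markers of fibroadipogenic progenitors, the collagen-making fibroblast precursors of muscle, 8 fell and 0 rose, and their summed level was 172401 to 239308 normalized reads in wild-type and 1045 to 3289 in mfn2-/- libraries. Of 8 tendon cell markers 8 fell, with sums of 36938 to 58437 and 306 to 407. Pdgfrb, Cspg4 and Mcam were low in the same libraries as these lists, and the part of such cells in their change was not tested. Of 12 endothelial markers 0 fell and 0 rose, with sums of 1285 to 2084 in wild-type and 1590 to 2524 in mfn2-/- libraries. Of 12 muscle stem cell markers 4 rose and 0 fell, with sums of 10187 to 14803 and 27702 to 42400 and a median log2 change of 0.09. Most of the difference in sums lay in Sdc4 (4271 and 17473 normalized reads on average) and Des (2156 and 7969). Of 7 Schwann cell markers 4 were tested and 1 fell, with sums of 302 to 708 and 218 to 459. Of 10 macrophage markers 5 were tested and 0 passed, with sums of 32.7 to 118 and 93.2 to 189. In wild-type, Emr1 was at 0 among the macrophage markers, and in mfn2-/- C1qb was.

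**Figure D5:**
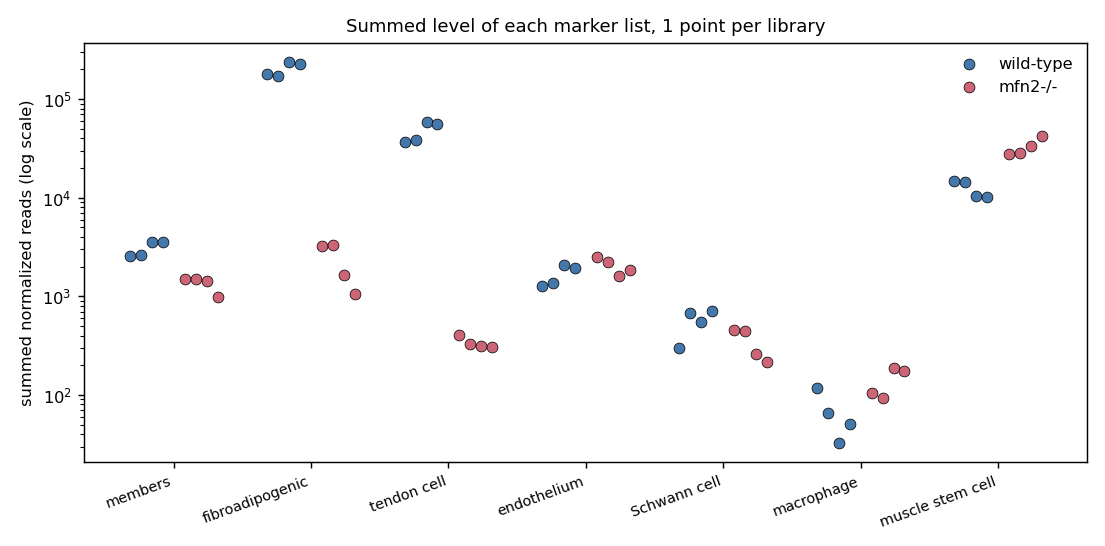
Summed normalized reads (log y axis) of the 8 markers and of the marker lists of 6 other cell types, 1 point per library, blue for wild-type and red for mfn2-/-. The fibroadipogenic and tendon cell sums are far lower in every mfn2-/- library, the muscle stem cell sums are higher in every one, and the endothelial sums overlap.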

How the data were processed

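RNA libraries of sorted ASCs were prepared with a stranded low-input kit. The authors deposited 1 table of normalized read counts, a linear signal per gene symbol with 1 column per library. The submitters' processing notes name Trim Galore, HISAT2, featureCounts, DESeq2 and build mm9, without versions, while annotation and strand setting are not given in the sources used here. All values of each column (100%) were whole multiples of 1 step within 0.01, and dividing by it recovered the reads, 1880464 to 7508215 per library. Floors of 3 reads cover counting error only, whereas the limma intervals reflect the spread between these libraries.

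Groups and replicate numbers came from the titles. The filter kept genes averaging 10 or more across the 8 libraries. These were fitted in limma 3.58.1 (R 4.3.3), after log2(value + 1), with a trend on mean level and two-sided tests, with Benjamini-Hochberg adjustment at 0.05 over all 11754 genes, and fold changes on this scale understate those of low genes. The difference between libraries with and without Y-linked reads was an interaction term. Cnn1, under the filter, was compared by an exact permutation test. Named genes were the 8 members, up to 6 called and the 2 most abundant uncalled genes of each list, and the 3 genes most like each member. Other genes named (actins and Cnn3 as sequence relatives, Srf, Pdgfb, genes under the filter, Myog and other marker genes) fall outside this rule and were chosen after their values were seen. Members and lists were chosen with earlier results of these data known. Alternatives were pseudocounts of 0.1 and 10, no filter, a mean of at least 50, equal totals, quantile normalization, a replicate block, no trend, library weights, a Y-linked read term, edgeR 4.0.16 (quasi-likelihood, TMM), DESeq2 1.42.0 and each library left out. The tests were tested on simulated data. Sequences are from RefSeq and figures from Python 3.11.15.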

Additional observations from a re-analysis of the deposited data

Results flagged for a closer look

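Acta2 was picked out because its change differed between libraries with and without Y-linked reads, by -1.83 on the log2 scale (limma adjusted p = 0.0452). Over all 11754 genes, 173 passed that test. Each kind held 2 libraries per group. Of 15 groups of 4 values, 0 had a library far from the others by Dixon's criterion.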

How the results depend on the processing

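Over 20 alternatives Pdgfrb (log2 change -3.09 to -2.84) and Cspg4 (-4.37 to -3.24) passed as lower in all 20. Mcam (-1.55 to -0.90) passed in 9, with adjusted p from 0.0065 to 0.133, and was lost with edgeR, no trend, equal totals, a pseudocount of 0.1, no filter, and without each wild-type replicate or mfn2-/- replicate 2 or 3. Acta2 passed only with library weights (-1.22, adjusted p = 0.000337), and its log2 change of -0.61 became -0.38 without wild-type replicate 3 (adjusted p = 0.568) and -0.95 without wild-type replicate 1 (adjusted p = 0.0519). Tagln and Myh11 passed in none, with negative changes throughout. Rgs5 turned positive with library weights (0.12), edgeR (0.14), DESeq2 (0.018) and without mfn2-/- replicate 4 (0.52), and with 1 library left out it ranged from -2.22 to 0.52. The causes were not tested.

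Genes called numbered 1217 (469 higher, 748 lower), 633 with no trend (113 higher, 520 lower), 3037 with library weights (1398 higher, 1639 lower) and 671 to 1331 with 1 library left out (235 to 489 higher, 436 to 842 lower). Fewest were called without wild-type replicate 3 (671) and replicate 4 (749), and fewer higher genes also without mfn2-/- replicate 1 (274), 2 (260) or 3 (311). Members called lower numbered 2 to 3 with 1 library left out, 2 with edgeR and 4 with library weights. With the replicate block 1043 genes and 3 members were called. Same-numbered libraries deviated from their group means with r of -0.03, -0.05, 0.04 and -0.11. Low values of this kind cannot tell whether same-numbered libraries were handled together. The block changed no call of a member, while Myl9, Csrp1 and Tagln2 no longer passed. The median of all genes was -0.16, and 0.13 with quantile normalization. Depth limits genes at the floor, such as Cnn1.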
